A study of Mus musculus with 4 samples.

Results

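The genes described here are the long noncoding RNA (lncRNA) genes on autosomes that were read in mouse neural stem cells, other than a handful of the best-known lncRNAs. Members were the genes of the deposited table whose Ensembl identifier carries the type lincRNA, antisense, processed transcript or bidirectional promoter lncRNA in GENCODE M21, without Malat1, Neat1, Meg3, H19, Kcnq1ot1, Gas5 and the Snhg genes. This gave 916 of the 14949 genes named in the table, with 1573 of its 46637 isoforms. There were 356 lincRNA genes (transcribed between coding genes), 305 antisense genes (on the strand opposite a coding gene), 196 processed transcripts (spliced RNA with no open reading frame assigned) and 59 bidirectional promoter lncRNAs (starting next to a coding gene and running the other way). M21 holds 9045 genes that meet the same rule.

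cDNA amplified by PCR, and read as long reads on a nanopore sequencer, was used to ask which splicing events depend on Tut1, a terminal uridylyltransferase that extends the 3′ end of U6 snRNA. The cells were primary cells, which the labels call neural cells and the study grew as neurospheres from embryonic neocortex, and all were treated with lipid nanoparticles (LNP) for 3 days. The 4 libraries, 1 per group, were Tut1f/f with empty LNP (the control), Tut1f/f with LNP carrying Cre recombinase mRNA (Tut1f/f;Cre), p53f/f with Cre-LNP (Trp53f/f;Cre in the plots), and both floxed genes with the same Cre-LNP (Tut1f/f;Trp53f/f;Cre in the plots). Every group therefore carried floxed alleles, and no group without a floxed allele received Cre. Values of 4 libraries are given in this order throughout. With 1 library a group there is no replicate check of any difference, genotype cannot be told apart from the culture and animal a library came from, and Cre mRNA cannot be told apart from the other ways in which the control library differed.

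Long noncoding RNAs are transcribed by RNA polymerase II, and most are capped, spliced and polyadenylated like mRNA but encode no known protein. Some act in cis on a neighbouring gene, some act in trans, and others serve mainly as precursors from which microRNAs or small nucleolar RNAs (snoRNAs) are cut. In the developing cortex, lncRNAs are known for cell-type-restricted expression and for lying beside the genes of neural transcription factors such as Sox2, Pou3f3, Six3 and Emx2.

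Several members are precursors of microRNAs, so the mature sequences within the hosts that the results below turn on are shown here, from RefSeq on GRCm38.p6, 5′ to 3′ with the seed (bases 2 to 8, which pair with targets) in capitals. In all, 28 microRNA hairpins lay inside 23 members on the same strand, 3 of them only partly in an exon and Mir181b-1 in both Gm4258 (intron) and A430106G13Rik (exon). The microRNAs themselves were not measured by this assay, so all values below are reads of the host RNA.
mmu-miR-9-5p (hosts C130071C03Rik, Gm3764 and Mir9-3hg): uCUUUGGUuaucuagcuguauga
mmu-miR-9-3p (the other arm of the same hairpins): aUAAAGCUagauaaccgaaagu
mmu-miR-99a-5p (Mir99ahg): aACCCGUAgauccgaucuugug
mmu-miR-100-5p (3110039I08Rik): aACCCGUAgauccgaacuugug
mmu-let-7c-5p (Mir99ahg): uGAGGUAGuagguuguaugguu
mmu-miR-125b-5p (3110039I08Rik): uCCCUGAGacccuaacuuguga
mmu-miR-181a-5p (Gm4258): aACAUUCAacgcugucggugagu
mmu-miR-181b-5p (Gm4258 and A430106G13Rik): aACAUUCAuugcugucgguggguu
mmu-miR-16-5p (Dleu2): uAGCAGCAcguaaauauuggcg
By seed, miR-99a and miR-100 form a family with hosts on different chromosomes, and miR-181a and miR-181b form another whose hairpins lie together in Gm4258. The miR-9 arms come from 3 host genes with the same mature sequences.

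RefSeq also gives promoters, here 250 bases before to 50 after a transcription start, for 460 of the 916 members. Promoters of C130071C03Rik are shown because its isoforms, which begin at different starts, changed places between libraries. CG pairs are in capitals, and both lie on the plus strand of GRCm38.p6.
C130071C03Rik upstream start, chr13:83721131-83721430: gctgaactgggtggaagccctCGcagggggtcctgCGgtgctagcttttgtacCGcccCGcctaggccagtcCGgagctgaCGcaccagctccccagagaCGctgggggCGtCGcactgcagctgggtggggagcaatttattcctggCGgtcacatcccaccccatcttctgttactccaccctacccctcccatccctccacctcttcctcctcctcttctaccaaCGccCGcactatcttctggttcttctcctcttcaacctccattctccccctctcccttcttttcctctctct
C130071C03Rik downstream start, chr13:83732243-83732542: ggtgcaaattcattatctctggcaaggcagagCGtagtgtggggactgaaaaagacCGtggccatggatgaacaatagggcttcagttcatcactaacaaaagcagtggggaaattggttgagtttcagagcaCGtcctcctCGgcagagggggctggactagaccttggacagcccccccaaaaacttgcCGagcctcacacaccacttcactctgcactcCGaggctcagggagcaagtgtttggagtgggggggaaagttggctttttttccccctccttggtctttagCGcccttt
The promoter of B230206L02Rik is shown because this gene had the smallest p for Trp53 status among the members. Its only match to the 10-base p53 half-site (either strand), which is part of a full p53 binding site, is in capitals.
B230206L02Rik, chr11:94133206-94133505, plus strand: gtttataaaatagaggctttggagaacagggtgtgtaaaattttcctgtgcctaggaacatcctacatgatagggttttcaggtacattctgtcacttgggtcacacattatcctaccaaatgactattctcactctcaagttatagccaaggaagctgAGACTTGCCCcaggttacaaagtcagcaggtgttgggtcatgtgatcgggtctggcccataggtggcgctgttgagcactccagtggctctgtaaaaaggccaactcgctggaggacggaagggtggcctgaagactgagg
The p53 half-site was present in 7.92% of the 581 member promoters and in 8.36% of all 32851 promoters, so such a match is common. A full site, made of a pair of half-sites, was in 0% of member promoters, that of B230206L02Rik included, and in 0.073% of all promoters. The upstream and downstream C130071C03Rik promoters held 12 and 7 CG pairs. Member promoters had a median of 13 CG pairs, against 20 for coding genes of the table and 7 for all promoters, and the box TATAAA (either strand) was in 12.05% of them against 6.91% and 13.6%. Promoters of the bidirectional class stood at the CG-rich end, with a median of 31.5 CG pairs and the box in 0 of 36.

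The libraries held 3936827 to 5125888 reads, of which 17.2% to 30.2% named no gene and 2863392 to 4244467 named a gene. Each read comes from 1 amplified cDNA molecule, so read numbers were not scaled by transcript length, and intervals cover counting error only, since reads from PCR without molecular tags may be copies of each other. Tut1 had 37, 11, 14 and 27 reads, which goes against the labels of the final pair (low where only p53 was floxed, near the control where both genes were), although only an exon of Tut1 is floxed and gene counts check its loss in part. These are therefore named by label only, as the p53-labelled library and the double-labelled library. Trp53 had 175, 67, 10 and 19 reads, low in both libraries labelled as lacking it. Xist, read in female cells, had 0, 44, 49 and 0 reads, and the Y-linked Ddx3y had 85, 0, 0 and 66, so Tut1f/f and the double-labelled library carried male transcripts and the other two female transcripts. All 8 neural stem cell markers were read (11812 to 13159 CPM in sum, where CPM is TMM-scaled reads per 1e+06 gene reads), 4 of 5 neuron markers were read at 84.3, 75.1, 69.4 and 81.4 CPM in sum while Rbfox3 of mature neurons and Gfap of astrocytes were at 0, and microglial and endothelial markers were at 0 in every library. Summed oligodendrocyte lineage markers were at 349, 588, 690 and 466 CPM, lowest in Tut1f/f, and the 4 astrocyte markers at 49.3, 12.02, 7.06 and 31.1 CPM, highest in Tut1f/f. The ribosomal RNA gene CT010467.1 took 792995, 289585, 305844 and 156348 reads, the most in Tut1f/f. The part of cell sex, of these marker differences and of ribosomal reads in the results below was not tested. In bulk libraries, fewer cells of a type and less RNA per cell cannot be told apart.

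Members were a thin layer of the transcriptome. They took 0.785% of gene reads in Tut1f/f (95% Wilson interval 0.776 to 0.793), 1.05% in Tut1f/f;Cre (1.04 to 1.06), 1.08% in the p53-labelled library (1.07 to 1.09) and 1.06% in the double-labelled library (1.05 to 1.07). Tut1f/f was thus below the other 3, which lay close together. Without the ribosomal RNA locus in the denominator the shares were 0.965%, 1.16%, 1.18% and 1.12%, with Tut1f/f still lowest. By type, the lincRNA genes took 0.347%, 0.487%, 0.497% and 0.482% of gene reads and the bidirectional genes 0.0669%, 0.115%, 0.106% and 0.107%. Processed transcripts took 0.273%, 0.341%, 0.369% and 0.363%, and antisense genes 0.0981%, 0.105%, 0.106% and 0.105%. Most bidirectional reads came from 1 gene, Ndufb1-ps, with 2213 of 2839, 2778 of 3418, 2967 of 3624 and 2472 of 3070. Of the lincRNA reads, Gm10076 held 5766 of 14735, 6008 of 14458, 7492 of 17073 and 5654 of 13800. These class shares therefore lean on single genes. The antisense share rests in part on 1 gene, Gt(ROSA)26Sor, with 20.7% of antisense reads in Tut1f/f, and without it the shares were 0.0777%, 0.1002%, 0.101% and 0.0993%.

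Of the 916 members, 891 had at least 1 read, 579 had reads in all 4 libraries, 554 had at least 10 reads in all, 125 at least 100 and 20 at least 1000. Their median was 15 reads over the 4 libraries, against 181 for the 11183 coding genes. The expression filter of edgeR (3.12 CPM in enough libraries) left 259 members, or 28.3%, against 81.1% of coding genes, and the other 657 were outside the main tests. The filter was not even-handed between groups, because 66 of the 259 were under that level in Tut1f/f, while 20 members above it in Tut1f/f alone did not pass. That 0 were under it in all 3 libraries with Cre mRNA follows from the filter itself, which asks for more than 1 library. Members also had simpler structures. Their longest annotated transcript had a median of 1181 nt and 2 exons, against 3288 nt and 8 exons for coding genes, 14.3% had a single exon (coding 2.03%), and 29.5% were read as at least 2 isoforms (coding 72.1%).

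Many members lay against coding genes. A coding gene overlapped 424 of them on the opposite strand, 312 with exons in common, and 316 started within 2000 bp of a coding gene that runs the other way. In all, 536 had no exon overlap with a gene outside the lncRNA rule given above. Overlap with other genes that meet the rule was not counted. Whether the table was made with strand information is not given in the sources used here, so reads of a member and of the gene on its other strand may be exchanged. RefSeq matched 581 members and typed 21 of them as protein coding, among them Cct6a, Tmem134, Trerf1 and Zswim6. These are coding loci, and the M21 identifier that carries their reads is a noncoding model there, so their values are not those of a classical lncRNA.

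A small set of genes carried most member reads, the 10 most read holding 57.0% of 131664. Gm10076, a single-exon lincRNA gene (chr14, 105681828 to 105682211, plus strand), held 18.9%, with 5766, 6008, 7492 and 5654 reads. Its transcript matches Rpl41, a ribosomal protein gene, at 99.5% identity over its whole length, so its reads cannot be told apart from those of that gene's family. Scaled, Gm10076 was at 1443, 2006, 2203 and 1893 CPM. Rpl41 itself had 3612, 4147, 4606 and 4173 reads. In all, 14 members had a near-identical coding copy, and they held 20.4% of member reads.

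The other highly read members were mostly hosts of small RNAs or partners of coding genes. 2410006H16Rik, which holds Snord49a, Snord49b and Snord65 (box C/D snoRNAs that guide RNA methylation), had 2607, 2930, 4567 and 3264 reads and was the member with the second-most reads. It was highest in the p53-labelled library, at 2.06 times its CPM in Tut1f/f (log2 ratio 1.04, 95% interval 0.97 to 1.11). Of the 14 members that hold a snoRNA, 12 were tested, and 2410006H16Rik in that comparison and AA465934 (Snord7), with 15, 20, 22 and 26 reads, in the double-labelled library against Tut1f/f, were the only ones counted as different against Tut1f/f or between the 2 libraries labelled as lacking Trp53. Of all genes tested, 26%, 27.5% and 20% differed from Tut1f/f in Tut1f/f;Cre, the p53-labelled and the double-labelled library. 1110038B12Rik, the host of Snord52, had 1390, 765, 1048 and 795 reads and Epb41l4aos had 458, 264, 451 and 308, and neither reached a 2-fold difference.

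Pantr1, a lincRNA beside the neural transcription factor gene Pou3f3, was the fourth-most read, with 1469, 1320, 1561 and 1600 reads. Its log2 ratios to Tut1f/f were 0.26, 0.32 and 0.54. Pou3f3, which starts 926 bp away on the other strand, had 7, 0, 1 and 8 reads, so the lncRNA supplied 99.5% to 100% of the pair's reads. Lockd, a lincRNA downstream of Cdkn1b, had 448, 385, 612 and 411 reads, and AI506816 had 1334, 647, 733 and 840. In CPM, both varied by less than 2-fold across the 4 libraries.

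**Figure D1:**
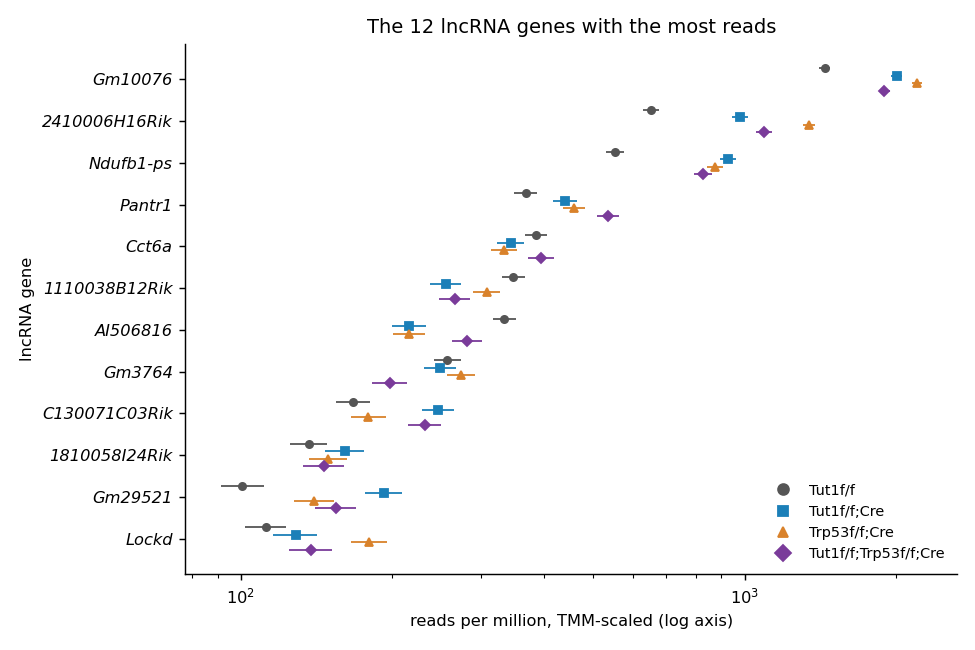
TMM-scaled CPM (log axis) of the 12 members with the highest mean, 1 point per library with its exact 95% Poisson interval. Gm10076 and 2410006H16Rik sit farthest to the right, and within a gene the 4 libraries span little over 2-fold at most.

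The first comparison asked what differed when Tut1f/f cells received Cre. The share of members lower in Tut1f/f;Cre was under that of all genes and the share higher somewhat over it, and these differences were not tested. Of the 393 members whose reads in both libraries summed to at least 10, 66 were at least 2-fold higher and 14 lower with an exact 95% interval that excluded no change. These are 16.8% and 3.56% of the members, against 12.5% and 13% of all genes chosen the same way. The median log2 ratio of these members was 0.26, against 0.00 for all genes, and 249 of 393 were above 0. By type, 32 of 140 lincRNA, 20 of 112 processed transcript, 12 of 116 antisense and 2 of 25 bidirectional genes were higher, and 3, 5, 5 and 1 were lower. In members with at least 100 such reads, 10 of 70 were higher and 3 lower, with 7.8% and 13.3% of all genes. Under the expression filter the counts were 58 higher and 7 lower of 259, where 13.1% and 12.8% of all 9882 genes were (26% in either direction), but nothing is read from these because the filter passed 66 of the members with Tut1f/f under its level.

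The other libraries with Cre mRNA share the Tut1f/f control and are given beside it. In the p53-labelled library, 58 members were higher and 17 lower than in Tut1f/f of 424 with at least 10 reads (12.8% and 14.5% of all genes), with a median log2 ratio of 0.33 against 0.01. In the double-labelled library, 49 were higher and 22 lower of 398 (9.73% and 10.6%), with a median of 0.21 against -0.04. The share of higher members was thus near the background in both and the share of lower ones under it, and these differences were not tested. With at least 100 reads, the p53-labelled library had 8 higher and 3 lower of 68 (9.16% and 14.6% of all genes), and the double-labelled library 5 and 3 of 62 (5.76% and 9.46%). Under the filter the counts were 47 and 10 (13.2% and 14.3% of all genes, 27.5% in either direction) and 38 and 10 (10.1% and 9.94%, 20% in either direction).

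**Figure D2:**
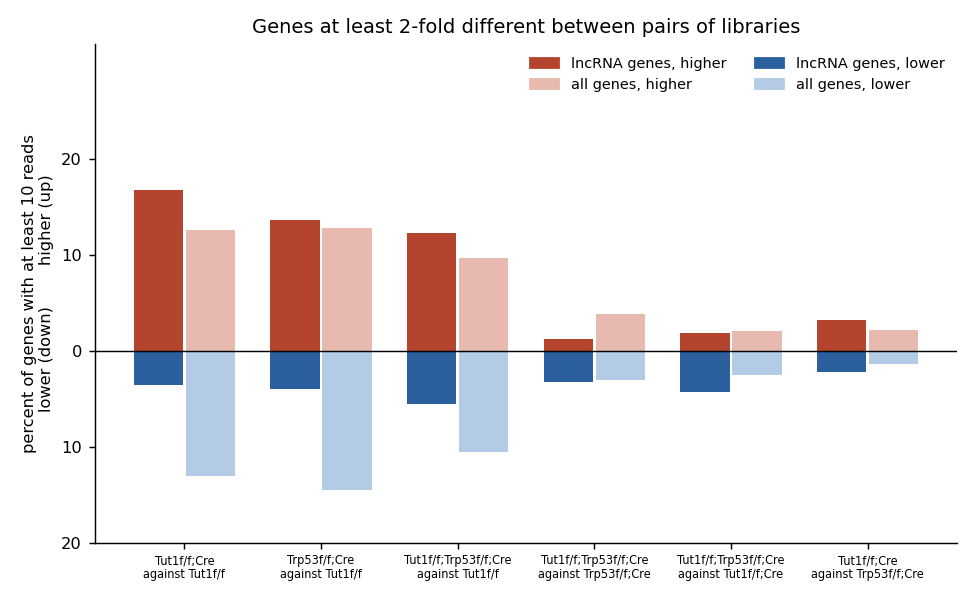
Percent of genes that were at least 2-fold higher (upward bars) or lower (downward bars) with a 95% interval excluding no change, among genes with at least 10 reads over the pair, for members (dark) and all genes (pale), in 6 pairs of libraries. Against Tut1f/f the members have short downward bars (3.56% in Tut1f/f;Cre, where all genes have 13%), while all genes are nearly even.

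Several members were far above Tut1f/f. Gm28052, a processed transcript of chr17 (29549799 to 29682012, plus strand), had 1, 28, 22 and 22 reads. It was under a floor of 3 counts in Tut1f/f and read in each of the others. The ratio of Tut1f/f;Cre to Tut1f/f, 37.4-fold with a log2 interval of 2.63 to 10.58, therefore has no firm size. All reads of Gm28052 were in an isoform named by a read, with exons shared with 3 genes on the same strand. It therefore has no value with annotated transcripts alone. The Trerf1 entry, named for a transcriptional regulator, had 9, 70, 57 and 41 reads, 10.4, 7.44 and 6.10 times its CPM in Tut1f/f. RefSeq types that locus as coding, and its reads, too, were all in isoforms named by a read. Gm1976 (12, 54, 35 and 55 reads), Gm48855 (3, 16, 17 and 20) and Gm16536 (2, 16, 18 and 9) were also lowest in Tut1f/f. In Tut1f/f;Cre their log2 ratios were 2.59 (1.67 to 3.62), 2.83 (1.03 to 5.25) and 3.42 (1.33 to 6.58), wide because Tut1f/f had so few reads.

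Mir99ahg, the host of miR-99a and let-7c, was the best-known gene in this set. It had 15, 57, 57 and 46 reads, with Tut1f/f below the other 3 and those 3 close together. Of these, 2, 17, 7 and 6 were in ENSMUST00000193530 and 0, 14, 20 and 12 in ENSMUST00000194553. Both are single-exon isoforms that do not span the hairpins. The Mir99ahg ratios given next include these reads. On the log2 scale its ratios over the control library were 2.34 (1.5 to 3.27), 2.16 (1.32 to 3.09) and 2.04 (1.17 to 2.98). The host of the seed-sharing miR-100, 3110039I08Rik, which also holds let-7a-2 and miR-125b-1, had 51, 33, 60 and 37 reads and did not follow, with log2 ratios of -0.21, 0.47 and -0.04. Both hosts hold these hairpins in introns. Gm4258, with the miR-181a-1 and miR-181b-1 hairpins in an intron, had 36, 85, 95 and 52 reads, and its log2 ratios were 1.66 (1.08 to 2.26), 1.63 (1.07 to 2.23) and 0.95 (0.31 to 1.61), the last under 2-fold.

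Dleu2, from a locus often deleted in leukaemia and the host of miR-16-1, had 67, 130, 156 and 115 reads, and was 2.59, 2.74 and 2.30 times higher than in Tut1f/f. Most of these reads (46, 89, 107 and 83) were in ENSMUST00000193208, which has a single exon. The spliced ENSMUST00000183079, with 5 exons, had 13, 18, 25 and 17. The bidirectional lncRNA 4632427E13Rik had 42, 126, 162 and 107 reads, 4.0, 4.53 and 3.41 times higher. Its head-to-head coding neighbour Rab30, a small GTPase gene 135 bp away, had 15, 12, 5 and 11 reads. Sox2ot, which overlaps the stem cell factor gene Sox2, had 41, 67, 73 and 50 reads with log2 ratios of 1.12, 1.07 and 0.71, and Sox2 had 843, 1149, 1350 and 797 with ratios of 0.86, 0.91 and 0.34. Both lie on the plus strand, Sox2 within Sox2ot, so reads assigned to either may belong to the other.

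Few members were lower in the libraries with Cre mRNA, and the clearest was Gt(ROSA)26Sor (antisense, chr6, 113067428 to 113077333, minus strand). This is the Rosa26 locus, transcribed in nearly all mouse cells and widely used as a site for inserting transgenes. It had 864 reads in Tut1f/f and 138, 175 and 166 in the others. These were 4.69-, 4.20- and 3.89-fold lower than Tut1f/f (log2 ratios -2.23, -2.07 and -1.96, intervals within -2.50 and -1.72), and the 3 libraries with Cre mRNA did not differ by 2-fold among themselves. The coding genes on either side were not lower. Thumpd3, whose end overlaps it on the other strand, had 106, 77, 74 and 82 reads (log2 ratios -0.05, -0.29 and 0.05). Setd5, which starts 32 bp away and runs in the opposite direction, had 72, 98, 93 and 109 reads (0.86, 0.60 and 1.02). The member's share of its reads and those of Thumpd3 was 89.1% in Tut1f/f (Wilson interval 87.0 to 90.9) and 64.2%, 70.3% and 66.9% in the others.

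Tmem147os, a processed transcript overlapped by the coding gene Gapdhs on the other strand but with no shared exon, had 93, 31, 21 and 20 reads, with log2 ratios of -1.17 (-1.80 to -0.57), -1.91 (-2.67 to -1.22) and -1.80 (-2.57 to -1.09). Most of its reads were in an isoform named by a read, and with annotated transcripts alone the ratio of Tut1f/f;Cre turned to 1.22. Tmem134, a locus that RefSeq types as coding, had 103, 37, 38 and 33 reads, 2.09-, 2.31- and 2.33-fold lower. Gm26631, 64, 24, 25 and 14 reads, was 2.18- and 3.42-fold lower in the p53-labelled and double-labelled libraries and just short of 2-fold in Tut1f/f;Cre.

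**Figure D3:**
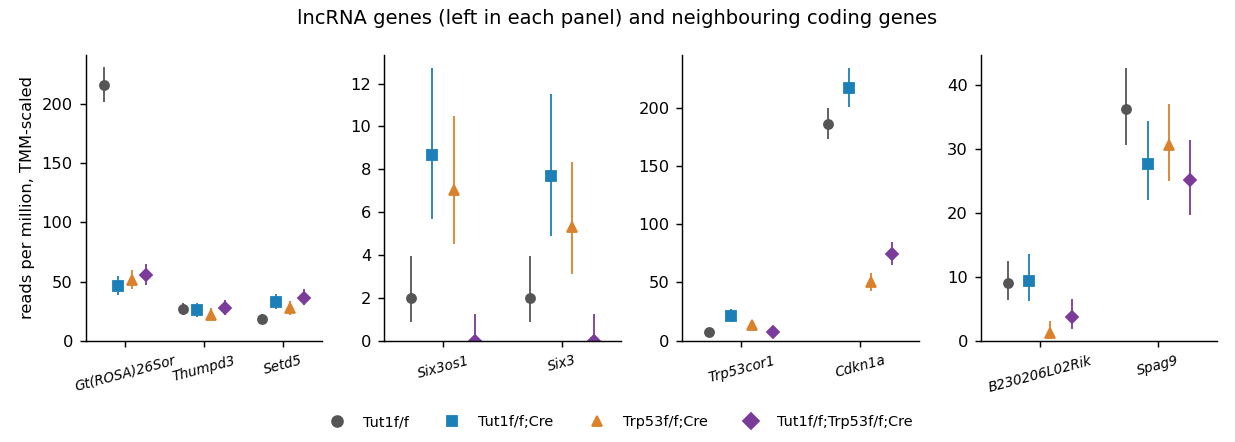
TMM-scaled CPM of 4 members and coding genes that overlap or lie near them, 1 point per library with its exact 95% Poisson interval. Gt(ROSA)26Sor is high in Tut1f/f alone (216 against 46.1 to 55.6 CPM) while Thumpd3 and Setd5 lie between 18 and 36.5 CPM, and Six3os1 and Six3 are both at 0 in the double-labelled library.

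Differences among the libraries with Cre mRNA were fewer. The double-labelled against the p53-labelled library, which by label isolates Tut1 in a background without Trp53, had 3 members higher and 8 lower (4.07% and 3.01% of all genes, 7.07% in either direction). With at least 10 reads in place of the filter it had 5 higher and 13 lower of 398 members (3.88% and 3.09% of all genes). Against Tut1f/f;Cre it had 5 higher and 14 lower (2.06% and 2.52%, 4.58% in either direction). Tut1f/f;Cre against the p53-labelled library had 11 higher and 6 lower (2.14% and 1.24%, 3.38% in either direction). Median log2 ratios of members with at least 10 reads were -0.11, -0.08 and -0.04, against -0.02, 0.00 and 0.00 for all genes.

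Six3os1, which overlaps the forebrain and eye transcription factor gene Six3 on the other strand (chr17, 85600651 to 85618398, minus strand), had 8, 26, 24 and 0 reads. None of these was in an annotated transcript as it stands, and the same holds for Zeb2os and Emx2os. Set against a floor of 3 counts, the double-labelled library was at least 7.02-fold lower than the p53-labelled library and at least 8.64-fold lower than Tut1f/f;Cre. Against Tut1f/f the same floor gave at least 1.99-fold, short of 2-fold. Six3 had 8, 23, 18 and 0 reads, the same order, and since strand handling is unknown these may be the same molecules.

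Other members told the Cre libraries apart by smaller amounts. 9230114K14Rik had 41, 69, 27 and 29 reads, 2.90 times higher in Tut1f/f;Cre than in the p53-labelled library and 2.37-fold lower in the double-labelled library than in Tut1f/f;Cre. A330076H08Rik had 10, 40, 14 and 19 reads and was likewise highest in Tut1f/f;Cre. CAAA01066123.1 (27, 30, 37 and 11 reads) and Gm12940 (46, 48, 64 and 23) were lowest in the double-labelled library, 2.95- and 2.44-fold below the p53-labelled library. D130020L05Rik had 16, 7, 26 and 6 reads, 3.80-fold lower in that comparison. Gm17251 had 36, 9, 18 and 25 reads, lowest in Tut1f/f;Cre.

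A model with a term for each of Tut1 and Trp53 status, fitted to the 4 libraries with 1 residual degree of freedom, called 0 of 259 members for Tut1 status by edgeR at an FDR under 0.05 and a 2-fold change, where 0% of all genes were called. At an unadjusted p under 0.05 there were 6 members (1.73% of all genes), and DESeq2 called 0 with 2 at that level. Gm1976 ranked first by p for Tut1, with a log2 fold change of 1.65 (SE 0.69) and an adjusted p of 1 by edgeR's quasi-likelihood test. For Trp53 status edgeR called 0 members (0.0101% of all genes), with 1 at an unadjusted p under 0.05 (1.49% of all genes), and DESeq2 called 0 with 1 at that level. That member was B230206L02Rik (chr11, 94133485 to 94155776, plus strand), a processed transcript whose promoter is printed above. It had 36, 28, 4 and 11 reads, low in both libraries labelled as lacking Trp53. Its log2 fold change was -2.04 (SE 0.82), with an adjusted p of 0.9998 by edgeR's quasi-likelihood test.

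Dropping the Tut1 term and the Tut1f/f;Cre library from the Trp53 fit called 27 members of 336, 18 higher and 9 lower, where 5.85% and 8.1% of all genes were (13.9% in either direction). The members' share was thus under the background. That fit sets Tut1f/f alone against both libraries labelled as lacking Trp53, which also received Cre, and leaving out any other library in its place called 0 members. Taco1os, antisense to a gene for cytochrome oxidase translation, had 23, 15, 50 and 37 reads, higher in both libraries labelled as lacking Trp53, and Taco1 had 64, 29, 25 and 19. The member's share of the pair was 26.4% and 34.1% in the libraries with Trp53 and 66.7% and 66.1% without, with Wilson intervals of 18.3 to 36.6, 21.9 to 48.9, 55.4 to 76.3 and 53 to 77.1.

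Known lncRNAs were described by list. Of 9 lncRNAs linked to p53 or DNA damage, 5 were members and all 5 were tested. Against Tut1f/f, 2 were higher in Tut1f/f;Cre, 1 in the p53-labelled library and 1 in the double-labelled library, and 0 were lower (median log2 ratios 0.91, 0.82 and 0.16, all genes 0.02, 0.02 and -0.02). Among all genes tested 13.1%, 13.2% and 10.1% were higher, and in lists this short the counts cannot be set apart from that share. Trp53cor1, known as lincRNA-p21 and a p53 target upstream of Cdkn1a, had 30, 64, 45 and 22 reads. It was 2.85 times higher in Tut1f/f;Cre than in Tut1f/f, and 2.90-fold lower in the double-labelled library than in Tut1f/f;Cre. It was not low in the p53-labelled library, where the neighbouring p53 target Cdkn1a was, at 744, 649, 171 and 221 reads. Pvt1, next to Myc, had 118, 101, 62 and 86 reads and Tug1 had 79, 79, 88 and 66, neither past 2-fold. 2900097C17Rik had 267, 376, 408 and 383 reads, 1.88, 1.80 and 1.92 times its CPM in Tut1f/f and so just short of 2-fold.

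Of 17 neural and stem cell lncRNAs, 5 were members and 4 were tested. Sox2ot was higher in Tut1f/f;Cre and in the p53-labelled library than in Tut1f/f and none was lower (medians 0.41, 0.35 and 0.51), and 0 differed among the Cre libraries. Pantr2 had 30, 20, 33 and 24 reads. Of 19 lncRNAs beside homeobox and other neural transcription factor genes, 5 were members and 4 were tested. Against Tut1f/f, 2 were higher in Tut1f/f;Cre and 1 in the p53-labelled library, and 1 was lower in the double-labelled library (medians 0.26, 0.49 and 0.24). Six3os1, described above, is in this list and made up all of these calls but that of Zeb2os in Tut1f/f;Cre. Its lower call rests on 0 reads against 8, at least 1.99-fold at the floor of 3 counts and so short of 2-fold. Zeb2os, antisense to Zeb2, a transcriptional repressor of neural development, had 17, 26, 23 and 21 reads and was 2.04 times higher in Tut1f/f;Cre than in Tut1f/f. Zeb2 had 15, 43, 61 and 58 reads, 3.82, 4.78 and 5.17 times higher than in Tut1f/f, while the ratios of the antisense gene were 2.04, 1.59 and 1.65. Hotairm1, at the start of the Hoxa cluster, had 17, 9, 14 and 21 reads, 2.34 times higher in the double-labelled library than in Tut1f/f;Cre. Emx2os had 19, 10, 20 and 12, while Emx2 had 33, 54, 79 and 54.

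Of 17 broadly expressed lncRNAs, 11 were members and 8 were tested, and 1810026B05Rik (40, 70, 66 and 48 reads) in Tut1f/f;Cre was the only one counted as different in any pair of libraries. 2610035D17Rik did not pass the filter, at 23, 8, 1 and 3 reads, highest in Tut1f/f. Zfas1, a host of Snord12, had 84, 77, 100 and 79 reads. The 10 imprinted lncRNAs had 2 members, Nespas (14, 16, 22 and 9 reads, tested) and Airn (8, 6, 15 and 7, not tested), and neither was counted as different. Of 10 microRNA host genes named for a microRNA, 6 were members and 4 were tested, and Mir99ahg alone was counted as different, higher than Tut1f/f in each of the other libraries. Mir22hg had 17, 11, 16 and 8 reads, Mir670hg 33, 39, 29 and 31, and Mir9-3hg 3, 0, 3 and 1. Of the 2 listed genes over the 45S ribosomal RNA locus, 0 were members.

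**Figure D4:**
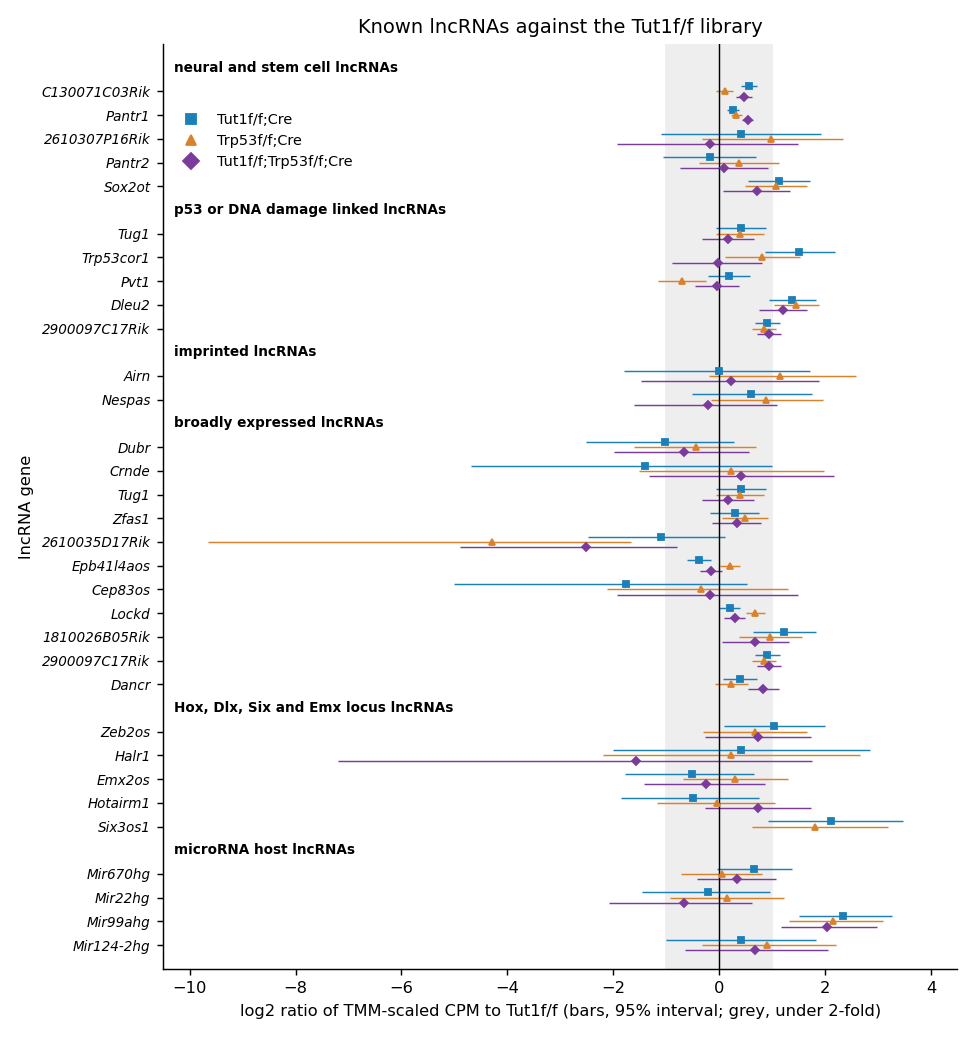
Log2 ratio of TMM-scaled CPM to Tut1f/f for the listed members with at least 10 reads over the 4 libraries, 1 point per library with Cre mRNA and its exact 95% interval, grouped by list (Tug1 and 2900097C17Rik stand in 2 lists). Mir99ahg and Dleu2 lie right of the grey 2-fold band in all 3 libraries, and Six3os1, at 0 reads in the double-labelled library, has no point there.

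Isoform usage, the percent of a gene's reads in an isoform, set Tut1f/f apart from the other libraries in a few well-read members. Fisher's exact test on reads, which compares libraries and not conditions, called 14 of 217 member isoforms (in 9 of 82 genes) in Tut1f/f;Cre against Tut1f/f, where 8.58% of all isoforms tested were called. It called 12 of 222 (7 of 86 genes) in the p53-labelled library (9.03% of all) and 11 of 215 (7 of 81 genes) in the double-labelled library (6.44% of all). Member shares were thus under the background in each of these, a difference that was not tested. With genes of at least 50 reads in each library they stayed under it in Tut1f/f;Cre (9 of 132, 8.39% of all) and the p53-labelled library (11 of 139, 8.71%). In the double-labelled library 11 of 127 were called, above the 6.59% of all.

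C130071C03Rik, also known as a long host of miR-9, a microRNA of neural progenitors, had a different isoform balance in Tut1f/f than in the other libraries. The isoform ENSMUST00000131907 (3590 nt, 4 exons, chr13, 83721381 to 83741308) took 82.2% (Wilson interval 79.1 to 84.9) of what was read from the gene in the control, and 46.5% (43.0 to 50.2), 50.8% (46.9 to 54.8) and 46.0% (42.3 to 49.7) in the others. ENSMUST00000182701 (1128 nt, 2 exons, 83732566 to 83735521) made up 15.4%, 48.8%, 45.1% and 48.4%. The Tut1f/f library stood apart and the 3 libraries with Cre mRNA overlapped. The long isoform begins at the upstream start printed above and the short one just after the downstream start. The Mir9-2 hairpin (83738814 to 83738885) lies in an exon of the long isoform and of no other annotated isoform that was read, beyond the end of the short one. The gene's reads, 668, 739, 610 and 692, changed by under 2-fold. In CPM the long isoform was at 137, 115, 91.2 and 106 and the short one at 25.8, 121, 80.9 and 112, so the short isoform differed most. The exact tests gave adjusted p-values for the long isoform of 5.56e-42, 1.23e-30 and 5.51e-42 against Tut1f/f.

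Gm3764, the host of Mir9-1 and the most read microRNA host among the members at 1028, 745, 932 and 590 reads, showed a smaller shift. ENSMUST00000180635 (1191 nt, 5 exons) rose from 17.8% in Tut1f/f to 39.9%, 40.7% and 31.4%, and an isoform named by a read fell from 40.5% to 26.04% and 25.2%, with 33.1% in the double-labelled library. The Mir9-1 hairpin lies in an intron of this gene. ENSMUST00000180635 starts at 88224280, beyond the hairpin (88215598 to 88215686), so reads of that isoform do not span it.

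Dancr, the host of Snora26 and a lncRNA named for blocking differentiation, had 170, 167, 170 and 226 reads. Its retained intron isoform ENSMUST00000117249 made up 6.47% in Tut1f/f (3.65 to 11.2) and 22.8% (17.1 to 29.7), 25.9% (19.9 to 32.9) and 21.2% (16.4 to 27.0) in the others, at the expense of the spliced ENSMUST00000120364 (93.5%, 77.2%, 74.1% and 78.8%). The retained intron isoform thus rose in all 3 libraries with Cre mRNA (adjusted p by the exact test 0.000485, 3.59e-05 and 0.000801). In Cct6a, a chaperonin subunit locus, the direction was the other way. Its retained intron isoform ENSMUST00000202262 fell from 63.7% to 30.1%, 27.2% and 31.3%, and an isoform named by a read went from 31.2% to 63.1%, 63.5% and 62.6%. AC121821.1, which holds Snora74a, had a retained intron isoform at 3.86%, 12.8%, 21.3% and 12.2%, called in the p53-labelled library and under 10 points of change in the other two, while its isoform ENSMUST00000235679 fell from 91.3% to 78.4%, 67.5% and 79.7%, called in all 3.

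**Figure D5:**
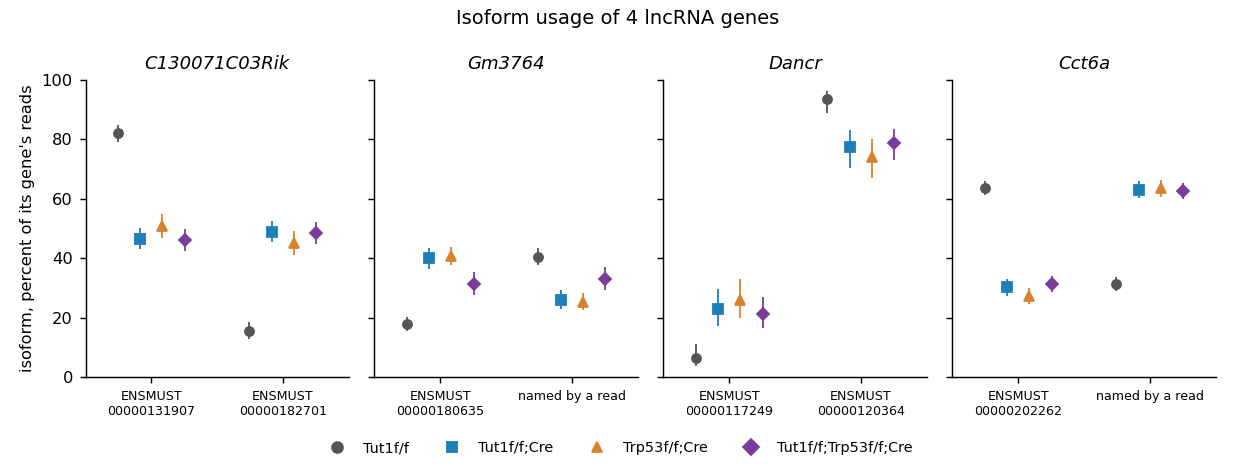
Percent of a gene's reads in each of 2 isoforms of C130071C03Rik, Gm3764, Dancr and Cct6a, 1 point per library with its 95% Wilson interval. In each panel Tut1f/f stands apart from the 3 libraries with Cre mRNA, for example at 82.2% against 46.0% to 50.8% for the long C130071C03Rik isoform.

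Between the 2 libraries labelled as lacking Trp53, 2 of 227 member isoforms were called, both of 6430590A07Rik, against 1.22% of all isoforms tested. Its retained intron isoform made up 41.7% of 36 reads (27.1 to 57.8) in the p53-labelled library and 8.93% of 56 reads (3.87 to 19.3) in the double-labelled library (exact test, adjusted p = 0.0274). It was at 16.7% of 12 reads and 13.3% of 30 in the Tut1f/f and Tut1f/f;Cre libraries. The gene has a near-identical coding copy, Mfsd8.

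Among members called in Tut1f/f;Cre alone or with 1 other library, 0610040B10Rik went from 8.82% to 45.9% for ENSMUST00000198455, and A830082K12Rik from 17.4% to 64.9% (46.2% in the p53-labelled library) for ENSMUST00000144545. These rest on 34 and 37 reads, and 46 and 37 reads, in Tut1f/f and Tut1f/f;Cre. The antisense E130307A14Rik went from 5.77% of 52 reads to 36.1% of 83 in the p53-labelled library for ENSMUST00000155482. Rab26os, the host of Snord60, was called in the double-labelled library, where ENSMUST00000176215 made up 12.03% against 2.01% in Tut1f/f.

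Members and the coding genes on their other strand were compared pair by pair. Across the 70 tested members that share exons with a tested coding gene on the other strand, Pearson's r of the log2 ratios to Tut1f/f was 0.15, 0.14 and 0.23, and across 73 head-to-head pairs it was -0.05, -0.07 and -0.05. These are correlations across genes of the same libraries, and genes are not independent replicates. In Tut1f/f;Cre, 15 of the 70 members were counted as different, of which 3 had a partner that differed in the same direction and 2 in the opposite one. The p53-labelled library had 13, with 4 and 3, and the double-labelled library 9, with 4 and 1. Of the 70 partners themselves 23, 29 and 18 differed, and of all genes 26%, 27.5% and 20%.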

How the data were processed

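The authors deposited 1 table of whole-number read counts per isoform, raw and not normalized, with 255164 entries, of which 208527 named no gene and stayed out of library sizes and tests (17.2% to 30.2% of reads). The labels name mm10, and the aligner and counter of this table are not given in the sources used here. Isoform counts were summed per gene identifier, and symbols, types and 1-based positions came from GENCODE M21 on GRCm38 (10 genes not found). Members and gene lists were chosen with earlier results of these data known.

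Counts were tested with edgeR 4.0.16 in R 4.3.3 (quasi-likelihood F test, TMM scaling, default filter, all genes, Benjamini-Hochberg adjustment) with a term for each of Tut1 and Trp53 status and 1 residual degree of freedom, and with DESeq2 1.42.0 as the alternative. SE was derived from the fold change and its F statistic. Pairs of libraries were compared by ratios of TMM-scaled CPM with exact conditional binomial 95% intervals, counting a gene as different at 2-fold with an interval excluding no change. Isoform usage was tested with Fisher's two-sided exact test (isoforms with at least 10 reads over both libraries, genes with at least 20 in each and at least 2 isoforms, FDR under 0.05 and 10 percentage points). Near-identical copies were transcripts with a blastn 2.17.0 match of at least 95% identity over at least 80%, and overlaps came from bedtools 2.31.1. Scripts were tested on simulated data. Genes named were Tut1 and Trp53, list members with at least 10 reads, the 12 members with the highest mean CPM, up to 8 members per direction and pair by ratio with at least 5 CPM in the higher library, the 5 smallest p per term, up to 10 usage genes per pair, and coding neighbours of these. AA465934, Gm4258, 3110039I08Rik, Mir9-3hg, Cdkn1a, Rpl41, Gm11110 and the sex-linked and ribosomal RNA genes were named after their values were seen. CPM is per 1e+06 gene reads.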

Additional observations from a re-analysis of the deposited data

Results flagged for a closer look

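In 3 members the difference between libraries by 1 status ran in opposite directions depending on the other, and the difference between those effects was not tested, since each library stands alone. Six3os1 had 8 reads in the control, 26 in Tut1f/f;Cre, 24 in the p53-labelled library and 0 in the double-labelled library. It was higher in Tut1f/f;Cre than in Tut1f/f but lower in the double-labelled library than in the p53-labelled one, and the same holds for the Trp53 contrast. Gm11110 had 10, 27, 27 and 13 reads and 2900009J06Rik had 9, 28, 20 and 12, both higher by Trp53 label in cells that kept Tut1 and lower in cells labelled as lacking it. In all 3 genes Tut1f/f and the double-labelled library, which also share male transcripts, had the fewest reads, and the part of cell sex was not tested.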

How the results depend on the processing

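No paired analysis was possible because each group had 1 library. For Tut1 status, 0 members were called under every alternative run, by DESeq2, other scaling, filters, annotated transcripts only, without the Trp53 term and with each library left out. For Trp53 status the same held except that the fit without the Tut1 term gave 0 to 27 calls as libraries were left out (27 of 336 without Tut1f/f;Cre, with 13.9% of all genes called). With at least 10 reads over both libraries in place of the filter, the double-labelled against the p53-labelled library had 18 members different. In the order of the pairs in the report, a 3-fold limit left 36, 31, 32, 3, 3 and 7 members of 259 different (11.7%, 12.9%, 8.58%, 1.86%, 1.38% and 1.0% of all genes). Leaving out members that share exons with a gene outside the lncRNA rule left 33, 28, 30, 5, 6 and 10 of 125. These are by construction fewer, with the all-gene percentages as in the report. Scaling to library totals shifted the all-gene median to 0.12, 0.10 and 0.12 against Tut1f/f, and counted 70 and 5, 53 and 10, and 55 and 10 members higher and lower there (15.3% and 11.05%, 14.8% and 12.98%, and 13% and 7.62% of all genes), and 4 higher and 6 lower between the libraries labelled as lacking Trp53 (4.94% and 2.26%). Library totals without the 45S ribosomal RNA locus moved that median to -0.03, -0.07 and -0.09 and counted 54 and 8, 42 and 10, and 36 and 13 (12.15% and 14%, 11.53% and 16.3%, and 9.12% and 11.5% of all genes). For isoform usage, 20 points in place of 10 left 8 in Tut1f/f;Cre (4.71% of all isoforms) and 4 in the double-labelled library (3.19%), and at least 50 reads of the gene left 9 in Tut1f/f;Cre (8.39%) and 0 between the libraries labelled as lacking Trp53 (1.46%). Member shares were 0.650%, 0.731%, 0.766% and 0.769% of all reads, 0.965%, 1.16%, 1.18% and 1.12% without the 45S ribosomal RNA locus, and 0.637%, 0.827%, 0.845% and 0.843% without members that have a near-identical coding copy, an alternative chosen after seeing the data. Tmem147os in Tut1f/f;Cre turned to a log2 ratio of 1.22 with annotated transcripts only. Of the other ratios of named genes, 559 kept their side of the threshold under library totals, 16 were stronger and 4 weaker, and with annotated transcripts 490 kept it, 12 were stronger and 22 weaker, where the cause was not tested. A further 54 ratios in 11 genes, 15 of them counted as different, had no value there because a library had 0 such reads, among them Gm28052, Trerf1, Six3os1, Zeb2os and Emx2os with none in any library. Depth limited which members could be compared, since 371 to 424 of 916 had at least 10 reads over the libraries of a pair.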
